A study of Mus musculus with 2 samples.

Results

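The CLCA genes (chloride channel accessory) of the mouse were examined in squamous organoids grown from the forestomach, the squamous-lined first part of the rodent stomach. Members were taken by symbol. Of 34472 probe sets on the array, 8 carried a symbol that begins with Clca and a digit, 6 of them with that symbol alone. These 6 were treated as genes, out of 29456 genes with a symbol of their own, and are Clca1, Clca2, Clca3b, Clca4a, Clca4b and the pseudogene Clca4c-ps. The other 2 rows list several symbols and are given apart as Clca3a1 and Clca3a2. In both of these the second symbol, Clca1 or Clca2, is an older name of the same gene in the RefSeq table, and it does not refer to the present Clca1 and Clca2. The family was selected on its log2 differences between these arrays, which were already known, so the members' values are a description without a test.

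One culture, SOX2 KO, came from forestomach of Krt5CreER/+ Sox2∆/∆ ROSA26tdTomato/+ mice, in which Cre under the Krt5 promoter removes Sox2 from squamous cells and turns on the tdTomato reporter after tamoxifen. The other, WT control, came from mice labelled wild-type, and control animals of the study were littermates that did not carry the Krt5CreER allele. Per the methods, squamous organoids were grown in Matrigel with keratinocyte medium, EGF and a ROCK inhibitor. No age of the mice and no passage number of either culture was found in the labels or the methods. Each group had 1 array (Affymetrix Mouse Gene 2.0 ST, deposited log2 signals), so genotype cannot be told apart from mouse, culture or array, and no difference below has a replicate check. In bulk RNA, fewer cells that express a gene and less RNA per cell cannot be told apart either.

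CLCA proteins were first described as chloride channels that open with calcium. They are now understood as proteins that enter the secretory pathway, carry a metalloprotease motif with which they cut themselves, and act on chloride conductance through other channels. In humans, secreted CLCA1 raises the surface level of the channel TMEM16A, encoded by Ano1 in the mouse, and CLCA2 is a membrane protein of stratified squamous epithelium that p53 induces. In the mouse, Clca1 is a product of goblet cells that is secreted with mucus, Clca4a is found in enterocytes of the gut, and Clca3b was first described from smooth muscle.

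The 8 probe sets lay in 1 cluster on chromosome 3 (chr3:144729916-145099104, mm10), 369 kb long, and all 8 were on the minus strand. In the order of the chromosome the cluster ran Clca3a1, Clca3a2, Clca3b, Clca4c-ps, Clca4b, Clca4a, Clca1 and Clca2. The gaps between neighbouring spans ranged from 3.13 kb, between Clca3a2 and Clca3b, to 37.5 kb, between Clca1 and Clca2.

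RefSeq promoter windows (GRCm38.p6, 250 bases before to 50 bases after an annotated start) were examined for 3 of the 6 genes, Clca3b, Clca4b and Clca2. The Clca2 window (chr3:145099057-145099356, minus strand) belongs to an internal start, since it lies inside the RefSeq span of the gene, whose 5′ end is at 145099443. The window of Clca3b (chr3:144849253-144849552, minus strand) is shown because this gene had the largest difference of the family. Capitals mark the matches of the motifs that were searched for, described next.
Clca3b: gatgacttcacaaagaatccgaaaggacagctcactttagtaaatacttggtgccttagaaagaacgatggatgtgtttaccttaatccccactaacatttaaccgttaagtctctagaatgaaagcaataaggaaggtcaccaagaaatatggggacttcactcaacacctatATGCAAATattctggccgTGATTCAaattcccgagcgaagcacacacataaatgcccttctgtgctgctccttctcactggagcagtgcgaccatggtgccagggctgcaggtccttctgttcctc

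Short motifs were looked for on both strands of these windows. The octamer ATGCAAAT, bound by POU factors, was added after the sequences had been seen. Of the 3 windows it occurred in that of Clca3b (position -76 from the annotated start), and it occurred in 1.74% of 32851 promoter windows of the RefSeq table. A loose form of the AP-1 motif, TGANTCA with any base at N, also occurred once in the Clca3b window. This match, TGATTCA, has T at the open base and lay at position -58 without overlap with the octamer. The loose form occurred in 7.81% of all windows. The SOX core motif was searched for in 1 form only, CATTGT. That form occurred in 1 of the 3 Clca windows, that of Clca2 (position -209), and in 12.6% of all windows. Other forms of the SOX core were not searched for or counted over all windows. Another form, CTTTGT, is present as its reverse complement, acaaag, near the upstream end of the Clca3b window, in lower case above. The Clca2 window holds acaaag as well. These are letter matches only, and SOX2 binding data were not analysed here.

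Sox2 itself, the check of the labels, had a signal of 5.74 in WT control and 2.53 in SOX2 KO. Squamous identity was present in both cultures: the basal keratin genes Krt5 (8.86 in WT control, 8.71 in SOX2 KO) and Krt14 (8.16 and 8.19) and the basal transcription factor gene Trp63 (6.44 and 6.31) were high in each. The floor was the median signal over all genes (3.30), and the 15983 genes with either array at or over it are called above the floor. As a stand-in for background, the 95th percentile of the signals of 1127 olfactory receptor genes was taken (3.84 on the log2 scale, called the receptor level here). The differences of these receptor genes, SOX2 KO minus WT control throughout, had an SD of 0.26 on the log2 scale and ran from -0.75 to 1.86.

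Clca3b was the member with a clear signal and a large difference. Its probe set (17410880, chr3:144822623-144849357) had a log2 signal of 7.10 in WT control and 4.24 in SOX2 KO, a difference of -2.86, or 7.26-fold lower in the culture without Sox2. In WT control 0 of 1127 receptor genes had a signal that high. In SOX2 KO 40 of them (3.55%) reached 4.24, so the remaining Clca3b signal lay only a little above the receptor level. Of all genes above the floor, 2 had a more negative difference than Clca3b.

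**Figure D1:**
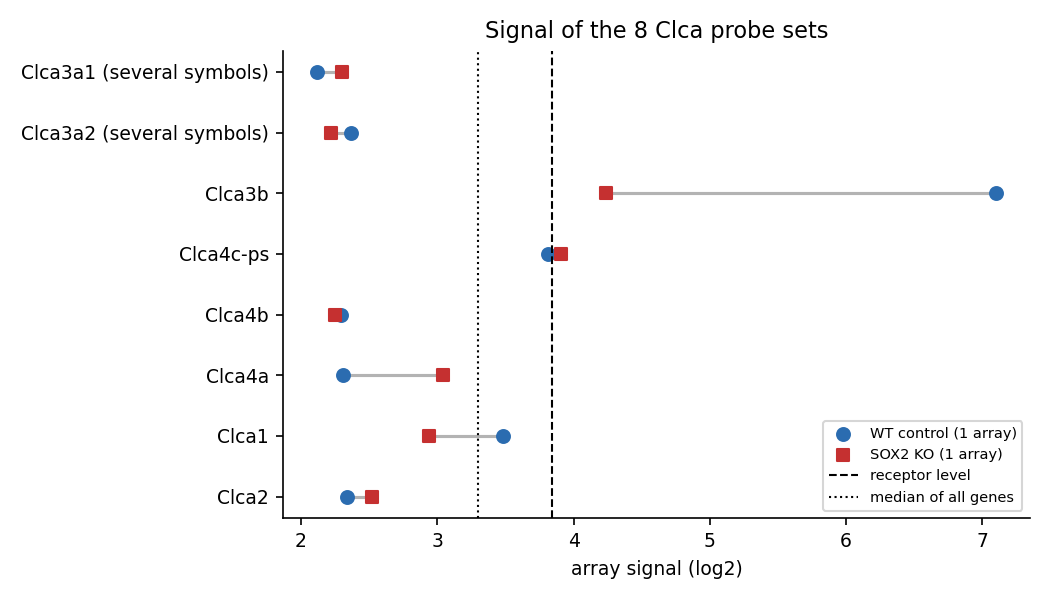
Array signal on the log2 scale (horizontal axis) of the 8 Clca probe sets in chromosome order, with a circle for the WT control array and a square for the SOX2 KO array, 1 array each. The dashed line is the receptor level (3.84) and the dotted line the median of all genes (3.30). Clca3b runs from 7.10 to 4.24, and Clca4c-ps, at 3.81 and 3.91, lies on the receptor level, while the other 6 stay below that level on both arrays.

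The 3 genes whose pair of signals lay nearest to that of Clca3b, by distance in the plane of the 2 log2 signals, were Klk14, a kallikrein-related protease gene (7.44 in WT control and 3.87 in SOX2 KO, distance 0.50), Calcb, which encodes a calcitonin gene-related peptide (6.63 and 3.97, distance 0.54), and Areg, which encodes the EGF receptor ligand amphiregulin (6.55 and 4.40, distance 0.57). This likeness rests on 2 arrays.

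The mucus-associated member Clca1 was near background. Its signal was 3.48 in WT control and 2.94 in SOX2 KO, a difference of -0.54. Both values were below the receptor level, with 7.90% of receptor genes at or above it in WT control and 23.4% in SOX2 KO, so no fold is given. Clca4c-ps, a transcribed pseudogene, sat on the receptor level at 3.81 in WT control and 3.91 in SOX2 KO, a difference of 0.10.

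The 3 remaining genes did not pass the floor. Clca4a, the enterocyte member, had a signal of 2.31 in WT control and 3.04 in SOX2 KO. This difference of 0.73 was the largest in the positive direction within the family. It was larger than the SD of the receptor gene differences (0.26) but inside their range (-0.75 to 1.86). Both Clca4a signals were below the receptor level, and 19.7% of receptor genes had a signal of at least 3.04 in SOX2 KO. A predicted gene on the opposite strand, Gm16233, overlaps the Clca4a span by 2401 bases and had signals of 4.04 in WT control and 3.72 in SOX2 KO. Clca4b was at 2.29 in WT control and 2.25 in SOX2 KO. Clca2, whose human counterpart marks stratified squamous epithelium, was also below the floor in these squamous organoids, at 2.34 in WT control against 2.52 in SOX2 KO. Of receptor genes, 51.6% had at least that signal in WT control. At this signal a lower level in either culture was not detectable.

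The rows with several symbols behaved like these last genes. Clca3a1 had signals of 2.12 in WT control and 2.30 in SOX2 KO. Clca3a2, the gene next to Clca3b, had signals of 2.37 in WT control and 2.22 in SOX2 KO. Neither row passed the floor. The probe sequences of the array were not used here, so how far any probe set also reads a related copy was not tested.

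Counted over all 6 genes with no floor, 1 was lower by 2-fold or more in SOX2 KO and 0 were higher by that much. The same was true of 0.435% (lower) and 1.12% (higher) of all genes with no floor, and of 0.795% (lower) and 2.01% (higher) of those above it. Since the family was chosen with this difference known, nothing is read from its count. To any extent, 3 of the 6 were lower and 3 higher, with a median of 0.03, against 0.00 over all genes. Without Clca3b the differences of the other 5 ran from -0.54 to 0.73. The 3 that passed the floor were Clca3b, Clca4c-ps and Clca1.

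**Figure D2:**
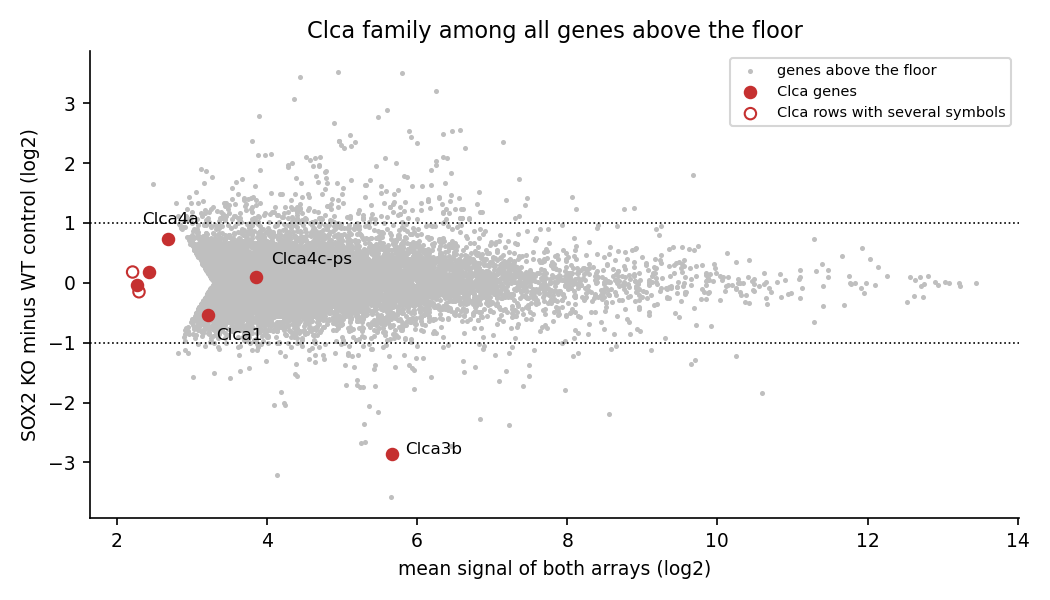
Difference between the arrays (SOX2 KO minus WT control, log2, vertical axis) against the mean signal of both arrays (log2, horizontal axis) for the 15983 genes above the floor in grey, with the 6 Clca genes as filled and the 2 rows with several symbols as open red circles. Dotted lines mark 2-fold. Clca3b lies at -2.86, and the other Clca points lie between the dotted lines at low mean signal.

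Genes next to the cluster did not show the difference of Clca3b. Of the 10 nearest genes with a symbol of their own on each side, 20 in all, 11 passed the floor and 0 were 2-fold higher or lower. Over all genes with no floor, 0.435% were lower and 1.12% higher by that much, so little is read from 0 of 20. The differences of the 20 neighbours ran from -0.85 to 0.31 with a median of -0.17, and 14 of 20 were negative. Sh3glb1, which encodes endophilin B1 and is the nearest gene on the side of Clca3a1, had signals of 7.96 in WT control and 7.69 in SOX2 KO. Odf2l, the nearest on the side of Clca2, had signals of 5.46 and 5.77. The most negative neighbour was Lmo4, a LIM-only transcription cofactor gene (6.10 and 5.25), named here after its value was seen.

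**Figure D3:**
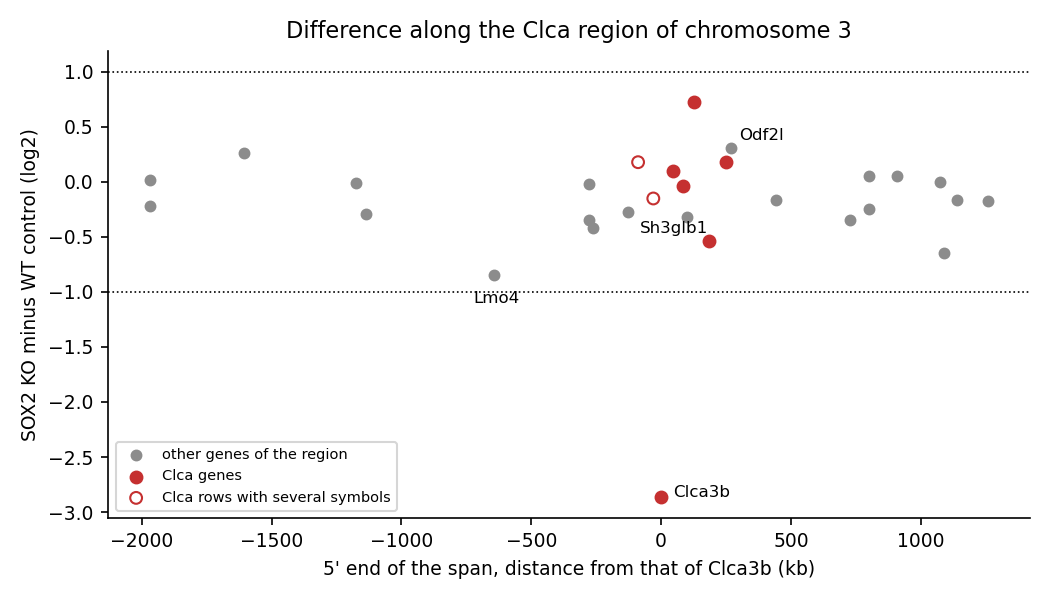
Difference between the arrays (SOX2 KO minus WT control, log2, vertical axis) by the position of each gene's 5′ end relative to that of Clca3b (kb, horizontal axis), with Clca genes as filled red, rows with several symbols as open red and other genes of the region as grey circles. Dotted lines mark 2-fold. Clca3b, at -2.86, is the 1 point beyond them.

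Genes of chloride channel families were compared as well. All 13 listed anoctamin and bestrophin genes were on the array. These are separate families that include calcium-activated chloride channels, and not every member is known as such a channel. Of these, 9 passed the floor, and 0 of the 9 were past 2-fold, with a median difference of -0.03. The whole-array shares past 2-fold, with the same floor, were 0.795% lower and 2.01% higher, so little is read from 0 of 9. On both arrays 9 of the 13 were below the receptor level, where a lower level cannot be seen. Ano1, the channel partner known from human cells, had the same signal in both cultures to within 0.05 (5.37 in WT control and 5.42 in SOX2 KO). Ano4 (4.22 and 3.80) and Best2 (4.15 and 3.88) were near the receptor level. Of 21 other chloride channel and transporter genes above the floor, 1 was at least 2-fold lower and 0 higher, with a median of -0.13. The lower one was Clic4, a chloride intracellular channel gene (6.88 and 5.81, a difference of -1.07). Its relatives Clic3 (6.25 and 5.92) and Clic1 (5.85 and 5.99) differed less.

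Mucus genes, which accompany Clca1 in goblet cells, were mostly near background. Of 21 mucin and secreted mucus genes 13 passed the floor. Of these, 0 were past 2-fold, against 0.795% lower and 2.01% higher over all genes above the floor. On both arrays 13 of the 21 were below the receptor level. The median difference of those above the floor was 0.16. The brightest were Muc15, a membrane mucin gene (5.11 in WT control and 4.49 in SOX2 KO), Fcgbp, a mucus-network protein gene (4.48 and 4.33), and Muc4, another membrane mucin gene (4.12 and 4.28). Of the 7 goblet cell markers, 4 were below the receptor level on both arrays, namely Tff3 (3.24 and 3.12), Zg16 (2.37 and 2.19), Agr2 (2.33 and 2.48) and Atoh1 (3.36 and 3.38). The other 3 reached it on at least 1 array: the goblet cell transcription factor gene Spdef was at 3.86 and 3.87, the secreted mucin gene Muc2 at 3.68 and 4.03, and Fcgbp is given above. Genes of the response to IL-13, an inducer of Clca1 in airway epithelium, were also compared. Of 7 that passed the floor, 1 was at least 2-fold higher, against 2.01% of all genes above the floor. It was Postn, with both signals below the receptor level (2.40 and 3.59). Arg1, which encodes arginase 1, was bright in both cultures (9.76 and 8.84). The receptor chain gene Il13ra1 was at 5.87 and 6.29, the signal transducer gene Stat6 at 5.58 and 5.31, and the list median was -0.05.

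Genes tied to human CLCA2 were compared next. Of its adhesion partners 4 were measured under a symbol of their own, and 0 were past 2-fold. Over all genes above the floor, 0.795% were lower and 2.01% higher by that much, so little is read from 0 of 4. Cdh1, which encodes E-cadherin, was at 8.48 in WT control and 8.18 in SOX2 KO, Mpzl2, an epithelial adhesion gene, at 7.29 and 7.40, and Tjp1, a tight junction scaffold gene, at 6.99 and 7.22. Of 13 p53 target genes above the floor 1 was at least 2-fold lower, the stress gene Gadd45a (7.64 and 6.44), and 0 were higher, with a median of -0.11. The brightest p53 targets were Perp, a desmosome-associated gene (9.50 and 9.43), the cyclin gene Ccng1 (8.16 and 8.64) and the cell cycle inhibitor gene Cdkn1a (8.14 and 7.73).

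Squamous differentiation genes differed widely beside Clca3b, in both directions. Of 18 above the floor, 5 were lower and 4 higher by 2-fold or more. Over all genes above the floor, 0.795% were lower and 2.01% higher by that much. The list median was -0.66, against 0.00 over all genes above the floor. The envelope precursor gene Sprr3 (9.65 in WT control, 7.46 in SOX2 KO) and the transcription factor gene Klf4 (6.30 and 4.58) were lower, while the epidermal keratin genes Krt10 (4.65 and 7.86) and Krt1 (4.10 and 6.86) were higher. Among the brightest, Sprr1a was level (11.77 in both), and Krt13 (10.33 and 8.97) and Cnfn, a cornified envelope gene (10.35 and 9.06), were lower.

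**Figure D4:**
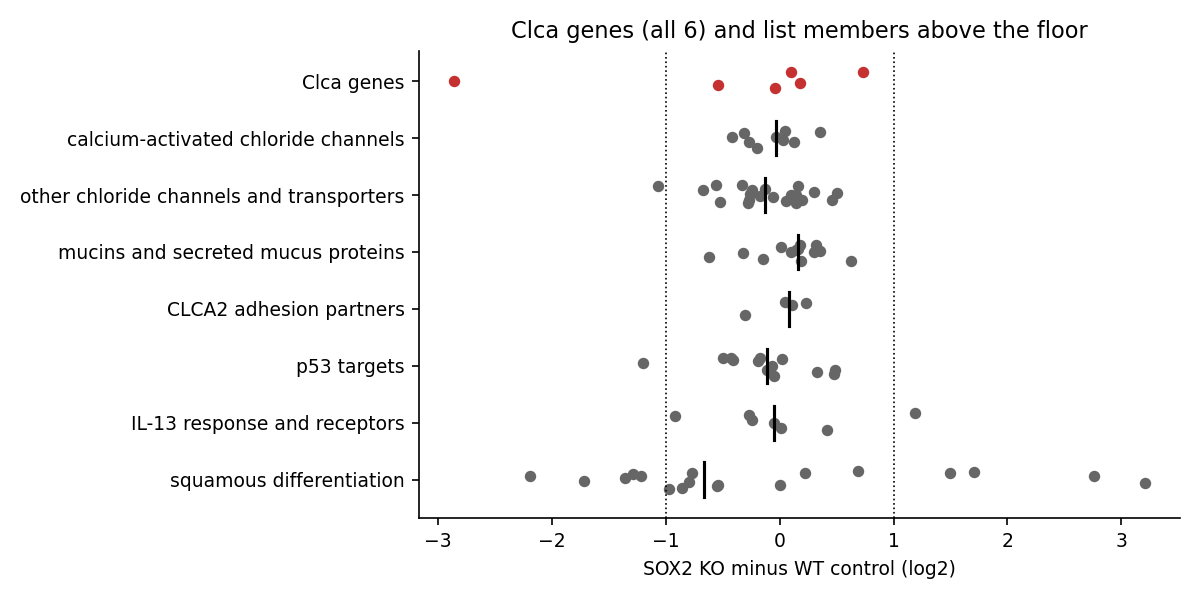
Difference between the arrays (SOX2 KO minus WT control, log2, horizontal axis) for all 6 Clca genes in red and, in grey, for the members above the floor of 7 gene lists, 1 point per gene with vertical scatter for legibility. Short black bars are list medians and dotted lines mark 2-fold. Clca3b lies at -2.86, past every listed gene on the lower side, where the next is Sprr3 at -2.19.

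Markers of other cell types were compared because Clca3b is known from smooth muscle and other members from goblet cells, gut and endothelium. Smooth muscle genes had higher signals in SOX2 KO, the culture with the lower Clca3b signal. All 6 listed were higher, 4 of them at least 2-fold, against 2.01% of all genes above the floor. They ranged from 3.10 to 4.16 in WT control and from 4.25 to 7.05 in SOX2 KO. Their summed signal was 6.31 in WT control and 8.30 in SOX2 KO on the log2 scale. Acta2 (4.16 and 7.05), Myh11 (3.97 and 6.26), Actg2 (3.31 and 5.24) and Cnn1 (3.10 and 4.53), all of the contractile apparatus, were past 2-fold. The WT control signals of Actg2 and Cnn1 were below the receptor level. The part of smooth muscle genes in the Clca3b difference was not tested.

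Of 6 fibroblast genes 4 passed the floor. Of these, 1 was at least 2-fold higher, the proteoglycan gene Dcn (2.83 and 5.90), with its WT control signal below the receptor level. Over all genes above the floor, 2.01% were higher by that much. Col1a1 was at 4.04 and 4.34, and the summed fibroblast signal was 5.88 in WT control, 6.91 in SOX2 KO. Of 6 leukocyte genes 2 passed the floor. Of these, 1 was at least 2-fold higher, the lysozyme gene Lyz2 (2.80 and 4.54), with its WT control signal below the receptor level. The defining leukocyte genes Ptprc (2.75 and 3.08) and Cd3e (3.08 in both) were below that level on both arrays. The summed leukocyte signal of 7.48 in WT control, 7.78 in SOX2 KO, was mostly that of Cd68 (7.18 and 7.39). Of 7 basal squamous genes 1 was at least 2-fold higher, the keratin gene Krt15 (7.50 and 8.73). Goblet cell (summed signal 6.31 and 6.33), gastric mucous cell (6.15 and 6.32), columnar (7.40 and 7.68) and endothelial lists (6.49 and 6.48) held 0 genes past 2-fold among those above the floor. Only 4, 4, 3 and 5 of their genes, in that order, passed the floor. With 0.795% lower and 2.01% higher over all genes above the floor, little is read from these counts.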

How the data were processed

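RNA from 1 culture per group was hybridized to 1 array each. Normalization was done by the authors with Transcriptome Analysis Console, and the deposited log2 signals have 2 decimals. Its version and summarization method: not given in the sources used here. The annotation is on mm10 per the file headers. The authors' fold change, p-value and FDR columns were not used. The series value table held the same signals (0 differed).

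Groups came from the genotype labels. Genes were rows with 1 symbol, with the brightest probe set where there were several. In 24 genes the symbol was stored as a date, and among the neighbours 1 such gene was named by accession. All 8 Clca rows matched RefSeq by accession. Folds past 2 are differences of at least 1 on the log2 scale. Where 1 signal lay below the receptor level no fold was printed. Members and lists were chosen with earlier results of these data known. Named genes were all members, the nearest neighbours, the nearest patterns, and from each list those past 2-fold (at most 4) and up to 3 of the brightest. Not every gene this rule selects is printed, and Tff3, Zg16, Agr2, Atoh1, Spdef, Muc2, Col1a1, Ptprc and Cd3e were added after their values were seen. Lrrc8d, Ctnnb1 and Itln1 had no row of their own. Python 3.11.15 with pandas 2.3.3, scipy 1.17.1 and statsmodels 0.14.6 was used. Promoters of the rows with several symbols are not reported here. Counting was tested on simulated data. The number of arrays limits the precision.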

Additional observations from a re-analysis of the deposited data

How the results depend on the processing

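The alternatives were median centring, quantile and loess scaling (span 0.3), the series value table, the mean over probe sets, no floor, a floor on both arrays or at the receptor level, and thresholds of 1.5-fold and 3-fold. No paired analysis was possible because only 1 array per group was analysed, and none could be left out. The Clca3b difference ranged from -2.93 to -2.85, and among the Clca genes above the floor in use 1 was counted lower and 0 higher in each of these alternatives. At 1.5-fold with no floor, a combination added after the data were seen, 1 was lower and 1 higher, Clca4a at 0.73, which lies below the floor. The other 5 moved by at most 0.02. Every Clca gene had 1 probe set, so neither the mean over probe sets nor the identical series table could move it. The median over the Clca genes above the floor (-0.54) rests on 3 genes. It was 0.03 with no floor and -1.38 with the floor on both arrays or at the receptor level, since fewer or more genes entered. For the same reason the median of squamous differentiation (-0.66) was -0.55 with no floor and -0.77 with either stricter floor, and that of anoctamins and bestrophins (-0.03) was -0.235 at the receptor level. The other 94 of 102 values stayed within the receptor SD of 0.26 for a gene, within 0.1 for a list median, or at the same count. Signals below the receptor level, which 6 of the 8 Clca probe sets had on both arrays, cannot show a lower level.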
